A study of Mus musculus with 14 samples.

Results

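The genes described here are those whose m6A-RIP rows moved apart between Lin28a+ and control muscle stem cells (MuSCs): the Lin28a+ over control ratio of one row of the gene differed widely from that of another row of the same gene. In the m6A-RIP table a row is a count for one enriched stretch of RNA listed under a transcript and a gene, without a position. Rows with 200 or more counts over the 4 m6A-RIP libraries were kept, and the log2 ratio of a row was the log2 of the mean counts-per-million (CPM) value + 1 in Lin28a+ over that in control. The span of a gene is its highest minus its lowest row ratio, and a gene was included when it had 2 or more kept rows and a span of 2 or more, a 4-fold disagreement between its rows in CPM + 1, which understates the fold change of rows with a low CPM. The genes were thus selected on their m6A-RIP row ratios. This gave 57 genes with 213 rows, of 4800 genes with 2 or more kept rows (1.19%) and of 18881 rows of 9416 genes in the whole table. Because the m6A-RIP ratios chose these genes, their m6A-RIP values are given as a description, without a test, and words such as dropped or went up, said of a row, state its values only.

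The cells came from the skeletal muscle of mice carrying a Lin28a-CreERT2 driver and an LSL-tdTomato reporter, from which Lin28a+ MuSCs were sorted. In these mice the Lin28a promoter drives the recombinase, and whether it was still active in the sorted cells was not examined here. Control MuSCs were labelled with the genotype Control. Both groups were kept on Matrigel in DMEM with 10% fetal bovine serum and received no treatment, and neither the age of the mice nor the number of animals behind a library was given. Each group had 2 libraries of input RNA, which was not immunoprecipitated, 2 of m6A-RIP and 2 of Igf2bp3-RIP, and Lin28a+ MuSCs also had 2 Lin28a-RIP libraries. Whether the libraries of a group came from separate animals or cultures was not given, so a p-value covers the spread between these libraries only, which may be technical. The column names did not show which Lin28a+ m6A-RIP or input library was replicate 1, and these libraries are called a and b. In the input table both Lin28a+ columns carry m6A names in their headers, so every Lin28a+ input value rests on reading them as input, which is the table that the labels of the input samples name.

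N6-methyladenosine (m6A) is an internal mark on mRNA, placed by the Mettl3-Mettl14 complex and found mostly in long exons and near stop codons. In m6A-RIP an antibody pulls down RNA fragments that carry the mark, so the count of a row follows both the share of methylated molecules and the amount of the RNA. Rows that come from one transcript share that amount. A row listed under a transcript need not come from it, since Igf2bp3-RIP peaks listed under 1 transcript of a member in places lay in another gene, as described below for Prrc1, Olfml2b and Anxa3. Igf2bp3 is a reader that binds m6A-marked mRNA and protects it, and Lin28a is an RNA-binding protein known for blocking let-7 maturation and for holding cells in an immature state. In bulk libraries a lower level of RNA per cell and fewer cells that carry it cannot be told apart.

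One of the 57 genes is itself a microRNA gene, Mir1953, and its mature sequence is shown because it is the only member whose product is a short sequence that can be printed in full. The sequence is from RefSeq (GRCm38.p6), chr2:151967581-151967602 on the minus strand, and the capitals mark the seed, bases 2 to 8.
mmu-miR-1953: uGGGAAAGuucucaggcuucug
The gene is 89 bases long, and 2 m6A-RIP rows were listed under its single transcript. The first had 23.3 and 25.5 CPM in control against 8.21 and 7.35 CPM in Lin28a+ MuSCs, and the second had 137 and 138 CPM in control against 233 and 230 CPM in Lin28a+ MuSCs. The first row was lower and the second higher in both Lin28a+ libraries, and the groups did not overlap in either row. Mir1953 is not in the input table. Fam110a, a gene that lies within 10 kb and was tested in the input, rose from 26.8 and 30.9 CPM to 52.2 and 52.1 CPM (log2 fold change 0.82, SE 0.063, adjusted p = 0.000187 in edgeR's quasi-likelihood test). Whether the rows belong to the microRNA or to RNA of the region could not be told from rows without positions.

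Depth ranged from 21350962 to 31830638 counts in the m6A-RIP libraries, from 9215355 to 34142094 in Igf2bp3-RIP, from 33908110 to 36610494 in Lin28a-RIP and from 4842915 to 6220960 in the input. The defining markers of MuSCs were present in the input, with Pax7 at 147 CPM in control and 192 CPM in Lin28a+ and Myod1 at 4625 and 4763 CPM. Other genes of the myogenic list differed more: Myog, a differentiation factor, went from 761 to 2811 CPM, and Heyl (3.14 to 51.6 CPM), Hey1 (29.2 to 81.9 CPM), Mymx (8.10 to 24.1 CPM) and Cdh15 (1342 to 2330 CPM) were higher too, while Myf5 (452 to 200.1 CPM), Vcam1 (17.4 to 4.64 CPM), Sdc3 (345 to 91.2 CPM) and Sdc4 (212 to 101 CPM) were lower, and Calcr and Chodl have no value. These are examples: of the 35 genes of the myogenic list that were tested, 8 were higher and 19 lower at an adjusted p under 0.05 in edgeR's quasi-likelihood test. Of the endothelial list, Selp was at 1.53 and 52.6 CPM, while Pecam1, Flt1, Tie1 and Vwf stayed under 1 CPM in both groups. The summed endothelial list was 3.83 to 4.45 CPM in control and 54.6 to 57.6 CPM in Lin28a+, the macrophage and leukocyte list 3.81 to 4.75 and 4.28 to 6.28 CPM, the fibro-adipogenic list 310.3 to 324 and 219 to 223 CPM, the Schwann and tenocyte list 112 to 113 and 150 to 153 CPM, and the pericyte and smooth muscle list 7414 to 7600 and 9031 to 9047 CPM. Acta2 and Des made up most of this last sum, and within it Mcam (6.20 to 56.6 CPM) was higher and Tagln (286 to 76.9 CPM) and Rgs5 (2.23 to 0.20 CPM) were lower. In the fibro-adipogenic list Ly6a (4.21 to 13.1 CPM) was higher and Gsn (144 to 64.0 CPM), Fbn1 (39.2 to 20.2 CPM) and Smoc2 (6.22 to 2.45 CPM) were lower, and in the Schwann and tenocyte list Scx (65.5 to 142 CPM) was higher and Egr1 (42.0 to 3.88 CPM) lower. None of these 5 lists held a member, and 1, 0, 1, 1 and 2 of their genes, in that order, had 2 or more kept m6A-RIP rows. Their part in the results was not tested.

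The members' spans ran from 2.04 to 4.89, with a median of 2.38, against a median of 0.24 in the other 4743 genes with 2 or more kept rows. Between libraries of one group the median span of the same rows was 0.35 in control and 0.33 in Lin28a+, against 0.21 and 0.22 in the other genes. It reached 1 in 3 of the 57 members, Igf2, Cdk8 and Col19a1, and in 53 of the 4743 other genes. The rule used the same rows, and members had more rows and a smallest row with fewer counts, as given below. Nothing is thus read from this difference in the spread within groups. In all 57 genes the ratio of the highest to the lowest row did not overlap between the groups, as in 65.0% of the 4800 genes, which the choice of members fixes. Just outside the limit lay Nudt18, Abr and Fez1, each with a span of 1.99, and just inside lay Gnas at 2.07, Sphk1 at 2.05 and Artn at 2.04. Between members and non-members there was thus no gap in the span, and with 0.1 or 5 CPM in place of 1 CPM in the ratio the rule gave 87 or 23 genes.

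**Figure D1:**
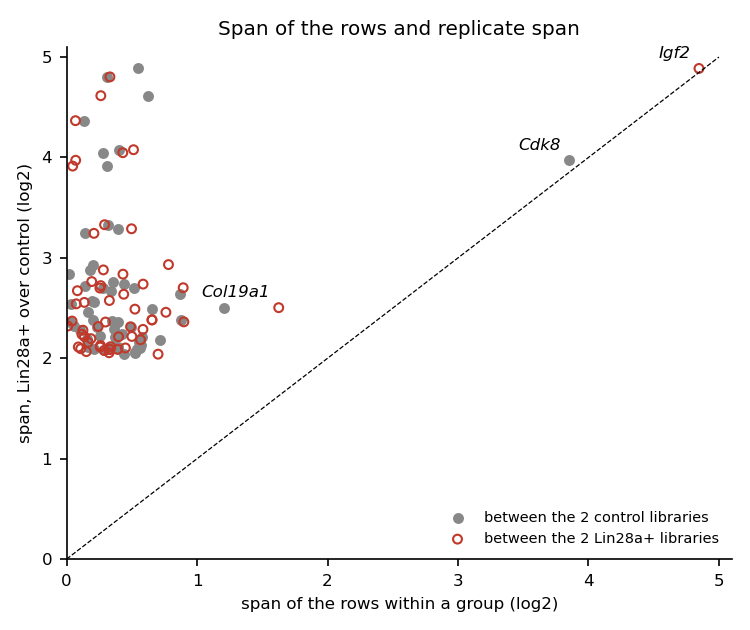
Span of the rows of each of the 57 genes between Lin28a+ and control (y axis, log2) against the span of the same rows between the 2 libraries of one group (x axis, log2; grey, control; red, Lin28a+), with the dashed line marking equality. Most points lie under 1 on the x axis, and Igf2 among the Lin28a+ libraries and Cdk8 among the control libraries lie near the line.

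More rows went down than up. Of the 213 rows, 93 had a log2 ratio of -1 or less and 25 had 1 or more, against 9.32% and 1.99% of all 18510 kept rows, and 95 lay between. With library sizes scaled by TMM these counts were 90 and 26, and the median ratio of all kept rows moved from -0.14 to 0.0036. A lower row was the odd one out or was joined by others in 41 genes without any row at 1 or more, and 12 genes had rows at 1 or more without any at -1 or less. Igf2, Dio2, Lrrc4c and Chd2 had rows on both sides (0.0833% of the 4800 genes). This count of 4 was 3 without Lin28a+ library b, when Igf2 and Lrrc4c left (highest row -1.27 and 0.65) and Rbm25 entered at 1.02, and 5 with any other single library left out. All rows had -1 or less in Tceal7, Col1a2 and Lbx1, and both rows of Scarf2 had 1 or more. The lowest and the highest row were listed under the same transcript in 22 genes (38.6%) and under different transcripts in 35, while 50.5% of the other genes had both on 1 transcript. Most members code for protein: 52 are protein-coding, 4 are long non-coding RNAs and 1 is the microRNA. Members had a median of 3 kept rows, other genes 2. The smallest row of a member held 453 counts in the median and that of another gene 935, so the most thinly covered row of a gene held fewer counts in members.

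**Figure D2:**
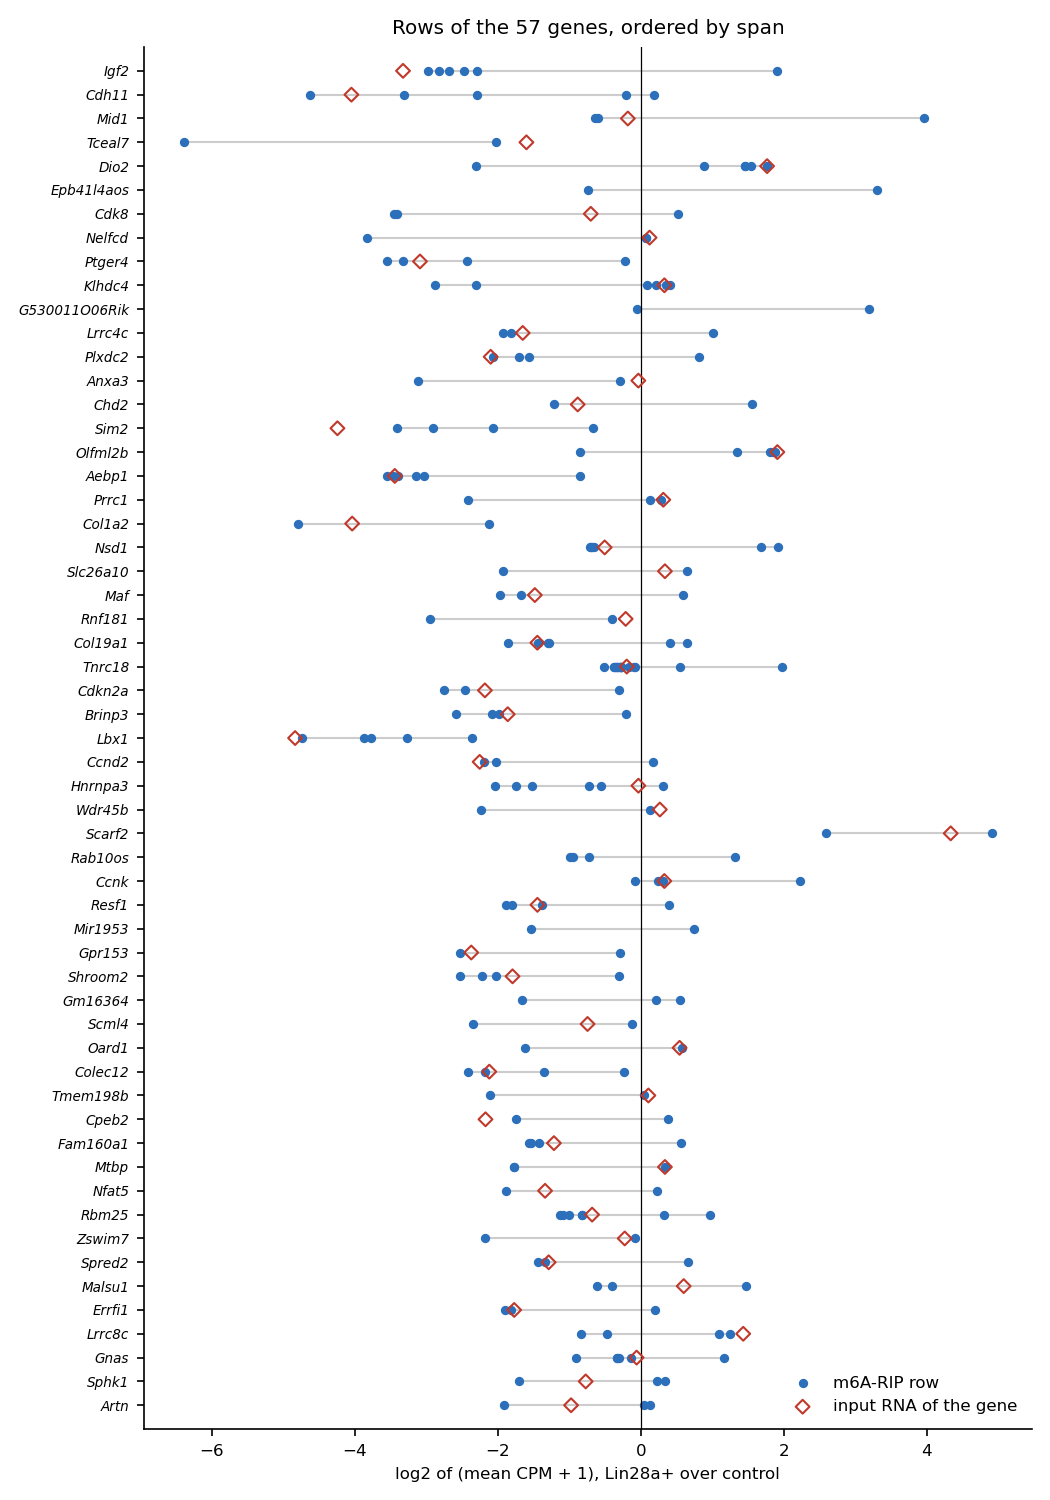
Log2 ratio of mean CPM + 1, Lin28a+ over control, of every kept m6A-RIP row (blue points) of the 57 genes ordered by span, with the input RNA of the gene on the same scale (red diamonds; 52 genes have one). In 35 genes the diamond lies between the lowest and the highest row, in 11 it lies above and in 6 below them.

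Among secreted and signalling genes, the widest span belonged to Igf2, the imprinted insulin-like growth factor that drives growth of fetal muscle. Its 5 larger rows were all lower in Lin28a+ MuSCs, with log2 ratios from -2.98 to -2.29. The third row, for example, had 911 and 986 CPM in control against 93.9 and 146 CPM in Lin28a+. The last row had 6.60 and 6.0 CPM in control against 2.02 and 50.8 CPM in Lin28a+ libraries, so its ratio of 1.91 rested on library b, while library a was below both controls. Library b was also above library a in 4 of the other 5 rows. Without library b the span was 2.87, and without the other libraries in turn it was 4.77 to 5.54. The RNA of Igf2 fell from 862 and 902 CPM to 86.0 and 87.9 CPM (log2 fold change -3.37, SE 0.031, adjusted p = 1.26e-06 in edgeR's quasi-likelihood test).

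Dio2, the deiodinase that turns thyroxine into active thyroid hormone in muscle and other tissues, went the other way. All 6 rows were listed under 1 transcript. The first row dropped from 7.73 and 7.77 CPM in control to 1.01 and 0.51 CPM in Lin28a+ MuSCs (log2 ratio -2.31). The other 5 rows were higher in both Lin28a+ libraries, with ratios from 0.88 to 1.76, and the fourth, the largest, had 65.1 and 66.1 CPM in control against 181 and 183 CPM in Lin28a+. The RNA rose from 140 and 145 CPM to 498 and 474 CPM (log2 fold change 1.74, SE 0.037, adjusted p = 5.28e-06). Thus 5 of the 6 rows went with the RNA and the first went against it.

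Ptger4 encodes the EP4 receptor for prostaglandin E2, which supports satellite cell expansion. Its first row changed little, at 20.5 and 22.5 CPM in control against 18.6 and 17.9 CPM in Lin28a+ MuSCs, while the second row of the same transcript dropped from 46.7 and 40.9 to 2.82 and 2.79 CPM (log2 ratios -0.23 and -3.56). The other 2 rows dropped with it, and the RNA fell as well (log2 fold change -3.69, SE 0.20, adjusted p = 5.43e-05). Sphk1, a sphingosine kinase, had 1 small row that dropped from 3.80 and 5.01 to 0.76 and 0.55 CPM and 2 rows with ratios of 0.23 and 0.34, and its RNA, at 1.09 and 1.07 CPM in control, was below the filter on low counts. Artn, the neurotrophic factor artemin, showed the same shape, with 1 row at -1.92 and 2 rows at 0.04 and 0.12. Gnas, the imprinted gene of the stimulatory G protein alpha subunit, had 4 large rows between -0.34 and -0.14. Its 2 small rows, under other transcripts, had ratios of 1.16 (3.74 and 2.86 to 8.63 and 8.60 CPM) and -0.90 (16.4 and 11.7 to 6.65 and 7.41 CPM), and the RNA did not pass the test (log2 fold change -0.09, adjusted p = 0.0928).

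Among adhesion and matrix genes, Cdh11, a cadherin of mesenchymal cells, split by transcript. The 3 rows of ENSMUST00000210578.1 were almost lost, the first dropping from 83.3 and 81.9 CPM to 2.32 and 2.47 CPM (log2 ratio -4.62). The 2 rows of ENSMUST00000210425.1 changed little. The first had 34.1 and 35.9 CPM in control against 30.6 and 29.8 CPM in Lin28a+ MuSCs, and the last had 52.2 and 55.0 CPM in control against 66.5 and 55.1 CPM in Lin28a+ MuSCs (log2 ratio 0.18). The RNA of the gene fell from 54.6 and 56.9 CPM to 2.37 and 2.48 CPM (log2 fold change -4.54, SE 0.081, adjusted p = 4.08e-06). Rows that kept close to their control level were thus listed under a gene whose RNA had been all but lost.

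Col1a2, a chain of type I collagen, was low in both of its rows, at -4.80 and -2.13. The row at -4.80 dropped from 62.4 and 63.4 CPM to 1.52 and 1.06 CPM and the row at -2.13 from 6.03 and 8.06 to 0.97 and 0.71 CPM. With 0.1 CPM added instead of 1 CPM the rows were at -5.50 and -2.93, a span of 2.57, and Col1a2 was still a member. Lbx1, a homeobox factor of migrating limb muscle precursors, and Sim2, a bHLH-PAS factor, also dropped in nearly all rows. The 5 rows of Lbx1 ran from -4.75 to -2.36, and the row at -2.36 had 3.39 and 5.34 CPM in control against 0.08 and 0 CPM in Lin28a+ MuSCs. The unequal ratios of Lbx1 rested on the 1 CPM added, since with 0.1 CPM its rows lay between -5.38 and -4.77, a span of 0.61, and it was not a member. Sim2 had 3 rows from -3.41 to -2.07 and a last one at -0.67, with 5.59 and 6.65 CPM in control against 3.87 and 3.08 CPM in Lin28a+. In RNA these were the 3 members with the largest falls, with log2 fold changes of -5.80 (SE 0.15) for Sim2, -5.17 (SE 0.061) for Lbx1 and -4.71 (SE 0.12) for Col1a2, and adjusted p-values of 7.75e-06, 1.42e-06 and 7.65e-06.

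Col19a1, a minor collagen of developing muscle, was one of the genes with many counts, and its libraries disagreed within groups. Its largest row had 308 and 138 CPM in the control libraries and 42.5 and 120 CPM in the Lin28a+ libraries. Its 2 small first rows had ratios of 0.41 and 0.64 and the 4 large rows from -1.86 to -1.29. The span stayed between 2.28 and 3.0 with any 1 library left out. The RNA was low, at 2.38 and 3.11 CPM in control against 0.33 and 0.41 CPM in Lin28a+, and fell in edgeR's test (log2 fold change -2.72, SE 0.35, adjusted p = 0.0011) but not in DESeq2 (adjusted p = 0.0661).

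Olfml2b, an extracellular olfactomedin-domain protein, was higher in 4 rows with ratios from 1.34 to 1.88, the largest going from 55.1 and 56.1 to 197 and 198 CPM. Its last row went down, from about 30 to 16.9 and 15.7 CPM (log2 ratio -0.85). The RNA rose, from 122 and 129 to 460.3 and 488 CPM (log2 fold change 1.89, SE 0.040, adjusted p = 5.28e-06). Scarf2, a scavenger receptor family member, rose most in RNA, from 0.88 and 1.38 to 43.1 and 40.8 CPM (log2 fold change 5.07, SE 0.13, adjusted p = 7.65e-06). Its rows, at 2.58 and 4.91, were both higher, and the larger had 1.92 and 1.87 CPM in control against 81.9 and 89.7 CPM in Lin28a+ MuSCs. With 0.1 CPM added instead of 1 CPM the rows were at 4.19 and 5.43, a span of 1.24, and Scarf2 was not a member. The synaptic adhesion gene Lrrc4c had 2 rows at -1.93 and -1.82 and a last row that went up from 4.49 and 4.31 to 7.5 and 12.2 CPM (log2 ratio 1.01, and 0.65 without library b), while its RNA fell (log2 fold change -2.54, SE 0.31, adjusted p = 0.000899).

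**Figure D3:**
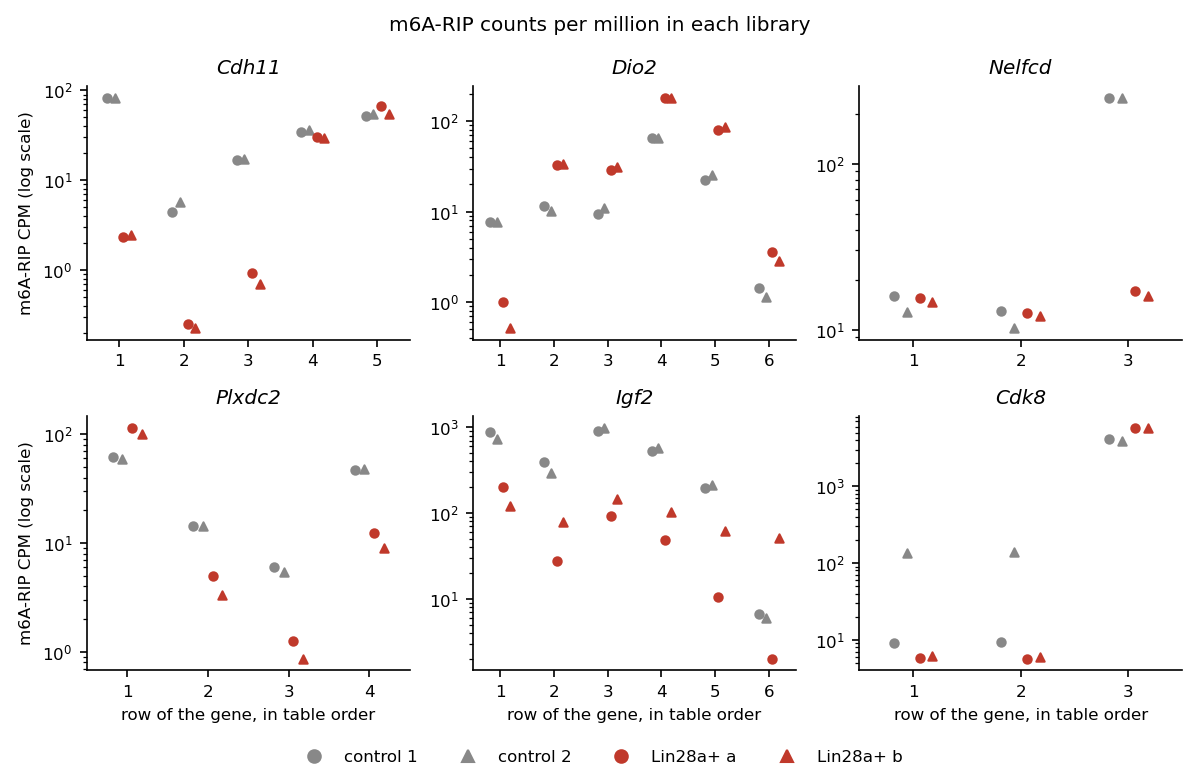
m6A-RIP CPM on a log scale in each library (grey, control; red, Lin28a+; circles and triangles, the 2 libraries of a group) for every kept row of Cdh11, Dio2, Nelfcd, Plxdc2, Igf2 and Cdk8. In Cdh11, Dio2, Nelfcd and Plxdc2 the libraries of a group lie close together and the rows move apart, whereas the last row of Igf2 and the first 2 rows of Cdk8 differ between libraries of one group.

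Among regulators of transcription and the cell cycle, Cdk8, the kinase of the Mediator complex, rested on 1 library. Its first 2 rows had 9.14 and 9.42 CPM in control library 1, 136 and 138 CPM in control library 2, and 5.68 to 6.06 CPM in the Lin28a+ libraries. The third row held the most counts of all member rows, with 4176 and 3904 CPM in control against 5777 and 5780 CPM in Lin28a+ MuSCs (log2 ratio 0.52). The RNA of Cdk8 was 15.7 and 14.6 CPM in control against 9.54 and 8.33 CPM in Lin28a+. Without control library 2 the span was 1.09 and Cdk8 would not be a member, and without the other libraries it was 3.95 to 4.92. The RNA fell in edgeR's test (log2 fold change -0.80, SE 0.10, adjusted p = 0.00117) and missed the threshold in DESeq2 (adjusted p = 0.108).

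Nelfcd encodes a subunit of the negative elongation factor that pauses RNA polymerase II. Its first 2 rows did not move, at 0.07 and 0.08, while the third dropped from 250 and 248 CPM in control to 17.1 and 15.9 CPM in Lin28a+ MuSCs (log2 ratio -3.84). The RNA of Nelfcd did not pass the test (38.5 and 36.9 CPM against 41.9 and 40.3 CPM, log2 fold change 0.10, adjusted p = 0.421). The row that dropped was also the row with the most counts.

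The cell cycle list held 2 members of its 24 genes with 2 or more kept rows. Cdkn2a, which encodes the inhibitor p16 and the p53 activator p19Arf, dropped in both rows of one transcript, from 219 and 208 to 39.9 and 35.7 CPM in the larger one. The row of its second transcript, which was small, had 6.03 and 6.46 CPM in control against 3.66 and 6.09 CPM in Lin28a+ MuSCs (log2 ratio -0.30), and there the groups overlapped. Ccnd2, a D-type cyclin that moves cells through G1, dropped in its 2 large rows (log2 ratios -2.19 and -2.02) and not in its small last row (4.65 and 3.75 against 5.22 and 4.52 CPM). The RNA of both genes fell, with log2 fold changes of -2.23 (SE 0.031) and -2.30 (SE 0.032) and adjusted p = 1.98e-06 for each. In both genes the larger rows went with the RNA and a row under 7 CPM did not.

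Chd2 and Nsd1 were the 2 members among the 75 chromatin and transcription regulators with 2 or more kept rows. Chd2, a chromatin remodeller, had 35.6 and 35.2 CPM in its large row in control against 14.8 and 14.6 CPM in Lin28a+ MuSCs (log2 ratio -1.21), and its small row went up from 2.29 and 1.55 to 8.17 and 6.93 CPM (log2 ratio 1.55). Nsd1, a histone H3 lysine 36 methyltransferase, had 4 rows from -0.71 to -0.66 and 2 rows of one further transcript that went up, the first from 4.93 and 6.32 to 22.5 and 25.9 CPM (log2 ratio 1.92). The RNA fell in both (log2 fold change -1.04, SE 0.11, adjusted p = 0.000624 for Chd2, and -0.55, SE 0.052, adjusted p = 0.000392 for Nsd1). The fall of Chd2 missed the threshold in DESeq2 (adjusted p = 0.126).

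Of the myogenic and satellite cell list, 2 of 22 genes with 2 or more kept rows were members, Igf2 and Tceal7. Tceal7 is a small X-linked gene that regulates myoblast proliferation. One row dropped from 131 and 137 CPM to 0.67 and 0.55 CPM, the lowest ratio of any member row at -6.39, and the other from 37.0 and 35.0 to 8.25 and 7.96 CPM (log2 ratio -2.02). The RNA ratio, -1.60, was above both rows (log2 fold change -1.72, SE 0.064, adjusted p = 1.91e-05). The extracellular matrix and adhesion list held 2 members among its 28 such genes, Cdh11 and Col1a2. No gene of the DNA repair list (0 of 40), the cytoskeleton list (0 of 41), the sarcomere list (0 of 19), the RNA binding, splicing and m6A machinery list (0 of 54) or the Wnt, TGF-beta, Notch and growth factor list (0 of 55) was a member. The lists are not complete, and the splicing regulators Rbm25 and Hnrnpa3, which are members, are in none of them. In RNA, of the genes of each list that were tested, 26 rose and 22 fell of 84 in DNA repair, 41 and 13 of 64 in the cell cycle, 10 and 32 of 48 in matrix and adhesion, 16 and 24 of 52 in the cytoskeleton, 9 and 27 of 39 in the sarcomere, 8 and 19 of 35 in the myogenic list, 21 and 29 of 82 in RNA binding, 8 and 44 of 90 in chromatin and 14 and 44 of 70 in growth factor signalling. Over all 11317 genes tested, 28.1% were higher and 28.7% lower. The members among them fell in every case. With 1.19% of all genes as members, a count of 0 in lists of this size does not set them apart.

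The genes with the most rows showed that a single row can set the span. Tnrc18, a large nuclear protein gene, had 18 kept rows under 6 transcripts. Of these, 16 had ratios from -0.51 to -0.09, the last had 0.55 (6.22 and 5.2 to 9.43 and 8.21 CPM), and the first had the highest, going from 0.63 and 0.37 CPM in control to 4.55 and 5.29 CPM in Lin28a+ MuSCs (log2 ratio 1.98). Klhdc4, a kelch-domain gene, had 4 rows from 0.09 to 0.40 and 2 that dropped, one of them from 7.89 and 8.81 to 0.34 and 0.19 CPM (log2 ratio -2.89), while its RNA missed the threshold (log2 fold change 0.32, adjusted p = 0.0686). Rbm25, a splicing regulator, had 5 rows from -1.14 to -0.83 and 2 rows of another transcript at 0.32 and 0.97. Errfi1, a feedback inhibitor of the EGF receptor, had 645 and 670 CPM in its largest row in control against 173 and 179 CPM in Lin28a+ MuSCs (log2 ratio -1.89), another row at -1.81, and a small one at 0.19. Its RNA fell as its large rows did (log2 fold change -1.81, SE 0.028, adjusted p = 3.23e-06).

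A pair of members, Mid1 and G530011O06Rik, overlap each other. Mid1, an X-linked microtubule-associated ubiquitin ligase, had rows at -0.65 and -0.60 and a last row that went up from 1.10 and 0.42 CPM in control to 24.5 and 28.5 CPM in Lin28a+ MuSCs (log2 ratio 3.97), while its RNA did not pass the test (log2 fold change -0.23, adjusted p = 0.277). The long non-coding RNA G530011O06Rik, which overlaps Mid1, had a row with no count in either control library and 8.09 and 8.18 CPM in Lin28a+ MuSCs, at least 69.3-fold higher when control is set to 3 counts per library. Its other row stayed level (9.08 and 10.1 against 8.42 and 10.0 CPM). Its Igf2bp3-RIP peaks lay on the Y chromosome in Mid1-ps1, a gene named after Mid1. The sequences were not compared, and whether reads were divided between these genes was not tested. The values of both members are given with that limit. The lncRNA Epb41l4aos had a row that went from 0.38 and 0.61 to 14.7 and 12.8 CPM (log2 ratio 3.31) and a larger row at -0.74. It has no value in the input table, and the RNA of its neighbour Epb41l4a, whose RefSeq span does not overlap it, rose from 0.58 and 0.30 CPM to 11.98 and 11.15 CPM (log2 fold change 4.66, SE 0.21, edgeR adjusted p = 3.08e-05). Whether reads of the neighbour reached this row was not tested.

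The input RNA, which the rule did not use, was tested for 49 of the 57 genes with edgeR's quasi-likelihood test. Of the other 8, 5 were not in the input table and 3 were below the filter on low counts. Of the 49, 39 passed at an adjusted p under 0.05, against 56.8% of the 11317 genes tested, with 30 lower (28.7% of all genes were lower) and 9 higher (28.1%). A fall of 2-fold or more was called in 26 members and in 8.73% of all genes, a rise of that size in 4 members and in 4.51%. The median log2 fold change was -1.34 in members and 0.01 over all genes. These shares are not independent of the rule: m6A-RIP counts follow the amount of RNA, and every member had a row at 1 or more or at -1 or less, while 4024 of 4743 other genes had none, so nothing is read from the difference to all genes. The largest rises were those of Scarf2, Lrrc8c and Olfml2b, and Lrrc8c, a subunit of the volume-regulated anion channel, went from 1.37 and 1.29 to 5.14 and 5.42 CPM (log2 fold change 1.99, SE 0.17, adjusted p = 0.000263).

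When the RNA was put on the scale of the rows, it lay between the lowest and the highest row in 35 of 52 genes, above all rows in 11 and below all rows in 6. Of the 200 rows with an RNA value, 130 (65.0%) were within 1 log2 unit of the RNA ratio of their gene, against 96.8% of the 12852 rows of the other genes, a difference that the rule on the span fixes in part. In 51 of 52 genes at least 1 row was within that distance, the exception being Cdk8, whose lower rows rest on control library 2. A row 2 or more units away was seen in 33 genes. The row with the most counts was the nearest to the RNA in 22 of the 52 genes, so in the other 30 a smaller row was closer.

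Rows were also set beside the RNA of neighbouring genes. RefSeq genes that overlap a member or lie within 10 kb were looked up, and 26 members with an RNA value had at least 1 such neighbour tested in the input, in 37 gene and neighbour pairs. The row farthest from the gene's own RNA had a ratio of 1 or more or of -1 or less in 17 of these genes, which gave 28 pairs. In 14 of the 28 pairs (50%), from 14 genes, the RNA ratio of the neighbour was within 1 log2 unit of that row. The same count over the other genes with 2 or more kept rows gave 159 of 330 pairs (48.2%), or 58 of 95 (61.1%) where the row also lay 1 or more from the RNA of its own gene, as it did in all 28 pairs of members. Neighbours this close were thus about as common beside other genes with such rows. Of all genes tested in the input, neighbours or not, a mean of 4.70% had an RNA ratio within 1 log2 unit of the rows of these 17 members. Since the rows were chosen by the rule, the values below are descriptions. The rows have no positions, so whether they came from RNA of the neighbour was not tested.

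**Figure D4:**
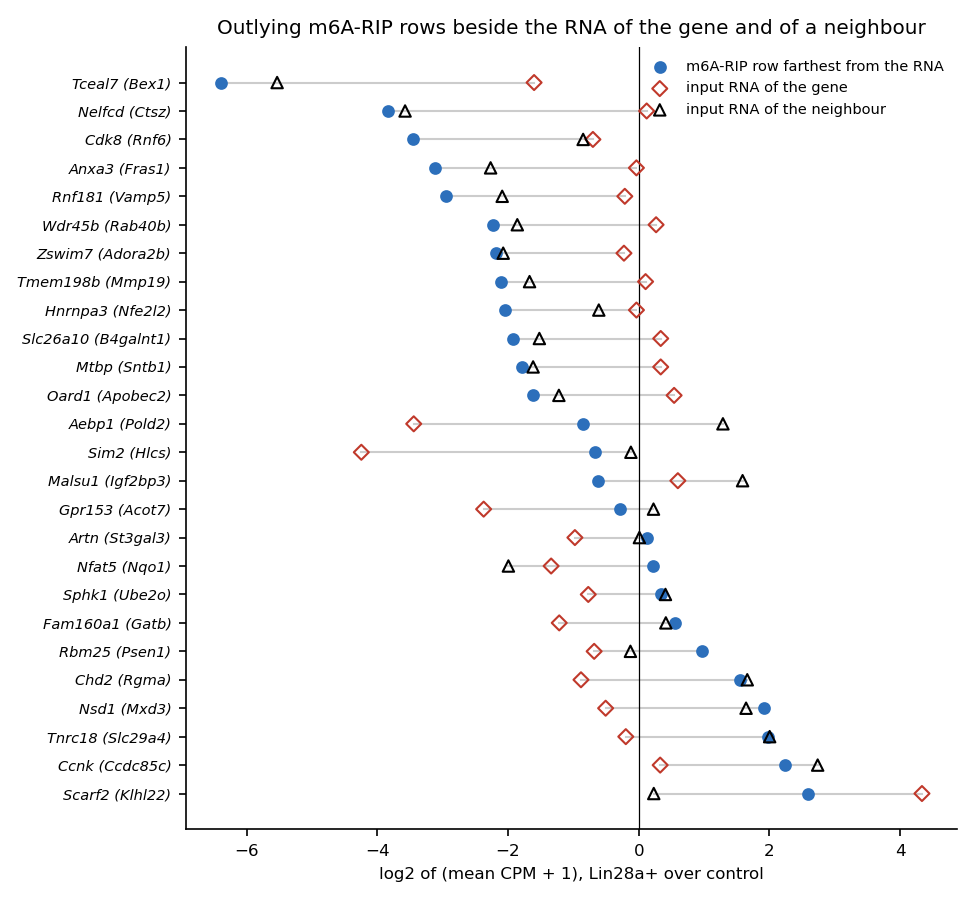
Log2 ratio of mean CPM + 1, Lin28a+ over control, for 26 genes: the m6A-RIP row farthest from the RNA (blue points), the input RNA of the same gene (red diamonds) and the input RNA of the neighbour in parentheses (black triangles; where a gene has several neighbours, the closest in value). In Nelfcd, Zswim7, Mtbp, Chd2 and Tnrc18 the triangle lies beside the point and the diamond apart from both, and in Aebp1, Malsu1, Nfat5 and Scarf2 it does not.

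Nelfcd overlaps Ctsz, the gene of the lysosomal protease cathepsin Z. The RNA of Ctsz fell from 439 and 464 CPM in control to 38.0 and 35.9 CPM in Lin28a+ MuSCs (log2 fold change -3.64, SE 0.043, adjusted p = 1.42e-06), beside the row of Nelfcd at -3.84. Tceal7 lies by Bex1, another small X-linked gene of the same superfamily, which fell from 57.2 and 61.4 to 0.35 and 0.26 CPM (log2 fold change -7.54, SE 0.15, adjusted p = 5.19e-06), beside a row at -6.39 (on the CPM + 1 scale of the rows, Bex1 had -5.53). On the rising side, the first row of Tnrc18 (1.98) stood beside the nucleoside transporter gene Slc29a4, which rose from 2.29 and 2.25 to 13.0 and 11.3 CPM (log2 fold change 2.41, SE 0.15, adjusted p = 8.32e-05). The small row of Chd2 (1.55) stood beside Rgma, a BMP co-receptor that rose from 3.15 and 2.93 to 10.8 and 12.8 CPM (log2 fold change 1.93, SE 0.15, adjusted p = 0.000175). The higher row of Nsd1 (1.92) stood beside the Max partner Mxd3 (log2 fold change 1.85, SE 0.13, adjusted p = 0.000116), although 2 further neighbours of Nsd1, Rab24 and Prelid1, had RNA ratios of only 0.49 and 0.53.

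Several further lower rows had such a partner: Zswim7 (row -2.18) with the adenosine receptor gene Adora2b (RNA ratio -2.07), Mtbp (-1.78) with the syntrophin gene Sntb1 (-1.62), Wdr45b (-2.24) with Rab40b (-1.86), Rnf181 (-2.95) with Vamp5 (-2.09), Tmem198b (-2.11) with the metalloproteinase gene Mmp19 (-1.67), Slc26a10 (-1.93) with B4galnt1 (-1.52), Oard1 (-1.62) with Apobec2 (-1.22) and Anxa3 (-3.12) with Fras1 (-2.27). On the other side stood Ccnk, the cyclin of Cdk12, whose row at 2.23 lay beside Ccdc85c at 2.74. Where a gene had several neighbours, only the closest in value is given here. In Sim2, Gpr153, Fam160a1, Sphk1 and Artn the row farthest from the RNA lay between -1 and 1, and their neighbours Hlcs, Acot7, Gatb, Ube2o and St3gal3 were within 1 of it. In Cdk8, Aebp1, Hnrnpa3, Scarf2, Nfat5, Rbm25 and Malsu1 no tested neighbour was within 1 of that row. Cdk8 (-3.46, a value that rests on control library 2), for example, had its neighbour Rnf6 at -0.85 and Aebp1 (-0.85) had Pold2 at 1.29. A further 26 members with an RNA value had no tested neighbour within 10 kb, among them Cdh11, Dio2 and Igf2.

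Igf2bp3-RIP was measured in libraries that the rule did not use and its peaks carry positions. At least 1 Igf2bp3-RIP peak was listed under 32 of the 57 members (56.1%, against 50.1% of the other genes with 2 or more kept rows) and a Lin28a-RIP peak under 18 (31.6% against 37.7%). Both were listed for 16 members and neither for 23. There were 167 Igf2bp3-RIP and 118 Lin28a-RIP peaks of members. Over the 41 transcripts of 32 members that had both m6A-RIP rows and Igf2bp3-RIP peaks, the mean log2 ratios of the 2 assays had a Pearson r of 0.70, and over 2985 transcripts of the other genes it was 0.50. These are descriptions across transcripts of the same cells, in which both assays follow the amount of RNA. The m6A-RIP ratios also chose the members, each of which had a row at 1 or more or at -1 or less. This widens the range of their ratios, so nothing is read from the difference between the 2 values of r.

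Of the 167 peaks, 3 passed at an adjusted p under 0.05 in edgeR's quasi-likelihood test (0.123% of all 19465 peaks passed), and all were lower and belonged to Col1a2. The largest, at chr6:4540383-4540850, had 33.4 and 41.6 CPM in control against 1.74 and 0.88 CPM in Lin28a+ MuSCs (log2 fold change -4.95, SE 0.44, adjusted p = 0.0424), and the others had log2 fold changes of -4.66 and -4.29. These peaks share a gene and are not independent. The difference of replicate 2 minus replicate 1 correlated between the groups with r = 0.69 over 19465 peaks, which the main test does not model. The number of member peaks that passed was 32 in DESeq2 (1.35% of all peaks) and 75 with the replicate number as a block (10.2%), although the numbers are not stated to mark a shared batch. It was 24 without control replicate 1 (0.776%), 12 without control replicate 2 (0.555%), 24 without Lin28a+ replicate 1 (0.992%) and 13 without Lin28a+ replicate 2 (0.683%). At an unadjusted p under 0.05 there were 59 peaks of 17 members, 47 lower (3.20% of all peaks) and 12 higher (2.03%), and the median log2 fold change was -0.23 in members and -0.01 over all peaks. These shares are not independent of the rule, since m6A-RIP and Igf2bp3-RIP both follow the amount of RNA. Peaks of 1 gene are not separate units either, so nothing is read from the difference to all peaks. Of the 7 peaks of Cdh11, all under the transcript whose m6A-RIP rows were lost, the log2 ratios ran from -3.44 to -2.04, with the smallest adjusted p at 0.0986. Both peaks of Dio2 had ratios near 2.03 (adjusted p of at least 0.116), the larger going from 227 and 188 to 915 and 800.0 CPM.

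Whether the Igf2bp3-RIP peaks of a gene moved unequally was tested in 27 members with 2 or more peaks, by the gene-level test of edgeR's diffSpliceDGE. In diffSpliceDGE no member passed at an adjusted p under 0.05, with its gene-level or its Simes method, against 0.0638% of all 3137 genes. Lrrc8c and Plxdc2 were the 2 members at an unadjusted p under 0.05 in diffSpliceDGE, as were 0.861% of all genes, and the adjusted p of both was 1. Without control replicate 1, Lrrc8c passed, in a fit where the lone control library was assumed to vary like the Lin28a+ libraries. The Igf2bp3-RIP span was 0.29 in the median both in members and over all 3137 genes. It was 1 or more in 5 members, Plxdc2, Hnrnpa3, Lrrc8c, Cdh11 and Prrc1, and in 1.47% of all genes. The other 22 of the 27 members examined had an Igf2bp3-RIP span under 1. Mid1 was one of these, with 3 peaks from -0.49 to -0.43 where its m6A-RIP rows spanned 4.62.

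Of the 5 members with an Igf2bp3-RIP span of 1 or more, Plxdc2, Lrrc8c, Prrc1 and Hnrnpa3 had peaks both inside and outside the RefSeq span of their gene, and in Cdh11 all peaks lay inside. For 8 members both assays had values on 2 or more transcripts, and the transcript with the higher m6A-RIP ratio also had the higher Igf2bp3-RIP ratio in 5 of them, as in 278 of 542 other genes (51.3%). In Plxdc2 the transcripts differed by 2.70 in m6A-RIP and 1.21 in Igf2bp3-RIP on the log2 scale, in Prrc1 by 2.70 and 1.13 and in Lrrc8c by 1.82 and 0.99. Mid1 had the largest difference between transcripts in m6A-RIP (3.97 against -0.60) and nearly none in Igf2bp3-RIP (-0.45 against -0.49), with the limit over Mid1-ps1 given above. Of the 167 peaks of members, 130 (77.8%) overlapped the RefSeq span of the gene they were listed under, 34 lay outside it and in another gene and 3 in neither. This was much as for all located peaks (80.6% inside), and the overlap was counted on GRCm38.p6, with mm10, the same assembly, named in the submitters' processing notes. For Lin28a-RIP the shares inside were 66.1% in members and 86.1% over all peaks, and Prrc1 with 15, Anxa3 with 11 and Hnrnpa3 with 9 held most of the members' peaks outside. By gene, 7 of 18 members and 1040 of all 3491 genes had a Lin28a-RIP peak outside. A peak listed under a member therefore did not always lie in that gene, and whose RNA was bound was not tested.

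In Plxdc2, a plexin-domain receptor, the m6A-RIP row of ENSMUST00000028081.12 went up from 61.7 and 59.6 to 114 and 100.2 CPM (log2 ratio 0.81). The 3 rows of the other transcripts dropped (-2.07 to -1.56), as did the RNA (log2 fold change -2.23, SE 0.069, adjusted p = 1.15e-05). In Igf2bp3-RIP, 2 peaks of the first transcript, at chr2:16022295-16022632 and chr2:16023023-16023340, had ratios of 0.39 and 0.81 and lay outside Plxdc2, in Malrd1. The 9 peaks inside Plxdc2 had ratios from -1.37 to -0.78. In m6A-RIP and in Igf2bp3-RIP alike, what was listed under Plxdc2 thus divided into a part that went with its RNA and a part that did not.

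In Prrc1, a Golgi-associated gene, the first m6A-RIP row dropped from 165 and 162 CPM in control to 30.1 and 29.2 CPM in Lin28a+ MuSCs (log2 ratio -2.42), with 2 rows of other transcripts at 0.13 and 0.28. The RNA of Prrc1 rose slightly (26.3 and 27.2 to 34.1 and 32.9 CPM, log2 fold change 0.30, SE 0.053, adjusted p = 0.0185). Of its 9 Igf2bp3-RIP peaks, the 8 of the first row's transcript had ratios from -1.31 to -1.01 and lay outside Prrc1, inside Megf10, and the 1 peak inside Prrc1 had -0.01. All 15 Lin28a-RIP peaks listed under Prrc1 lay in Megf10 as well. Megf10, a receptor of satellite cells that keeps them proliferating, fell from 398 and 400 CPM to 87.3 and 88.2 CPM in RNA (log2 fold change -2.21, SE 0.029, adjusted p = 1.61e-06).

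In Lrrc8c, whose RNA rose, the m6A-RIP rows of ENSMUST00000153754.1 were higher (1.09 and 1.24) and those of ENSMUST00000067924.12 had ratios of -0.84 and -0.48. The 7 Igf2bp3-RIP peaks inside Lrrc8c, all of the first transcript, had ratios from 0.94 to 1.77, near the RNA ratio of 1.43. The 4 peaks of the second transcript had ratios from 0.32 to 0.55 and lay in Lrrc8b, another channel subunit, whose RNA fell (log2 fold change -0.48, SE 0.065, adjusted p = 0.00154). In Hnrnpa3, a splicing regulator, the libraries of a group disagreed in several peaks, 4 of its 10 peaks lay in Nfe2l2, which encodes the antioxidant regulator Nrf2, and 3 lay in no RefSeq gene.

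**Figure D5:**
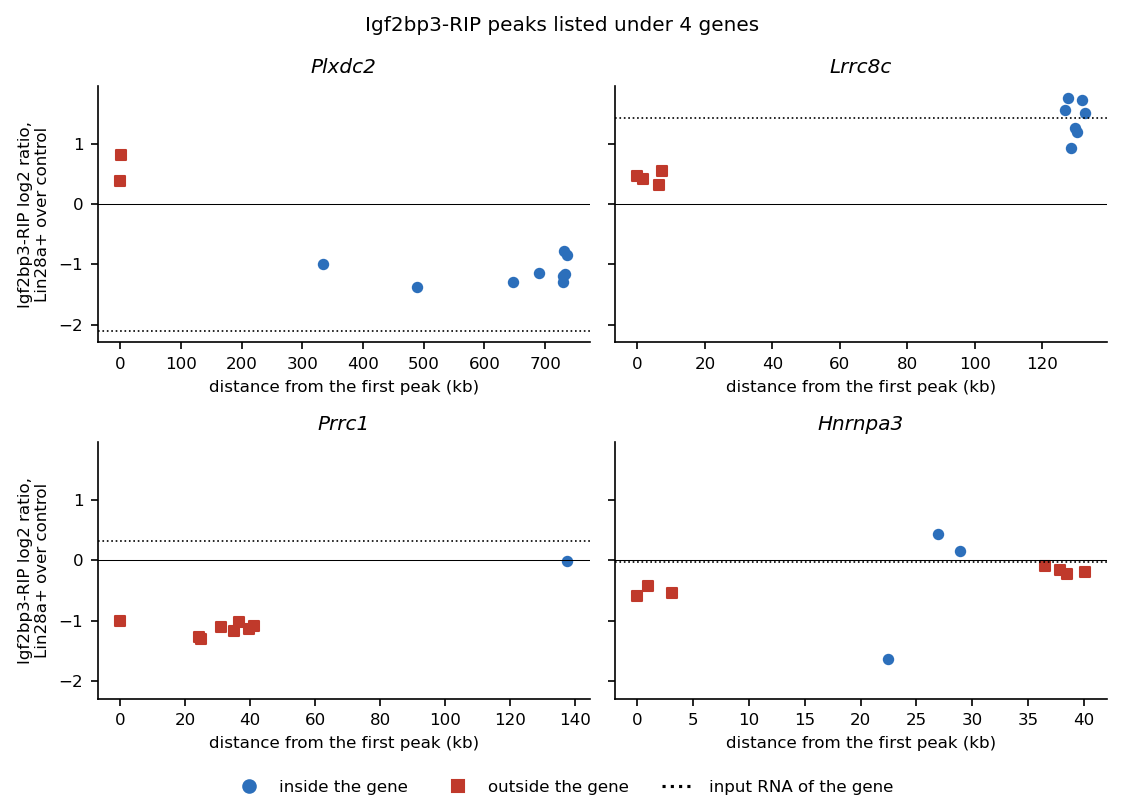
Igf2bp3-RIP log2 ratio (mean CPM + 1, Lin28a+ over control) of every peak listed under Plxdc2, Lrrc8c, Prrc1 and Hnrnpa3 against the distance from the first peak in kb, with peaks inside the RefSeq span of the gene in blue and outside it in red, and the input RNA ratio of the gene as a dotted line. In Plxdc2, Lrrc8c and Prrc1 the red and the blue peaks lie at different heights.

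All Igf2bp3-RIP peaks of Anxa3, Olfml2b and G530011O06Rik lay in another gene. Of the 3 peaks of Rab10os, 2 lay in Rab10 alone and 1 in both genes, and the peaks of Malsu1 and Gm16364 lay in their own gene and in another, Igf2bp3 and Fyn. All 4 Igf2bp3-RIP and 11 Lin28a-RIP peaks of Anxa3, an annexin, were in Fras1, an extracellular matrix gene whose RNA fell from 51.9 and 50.7 to 10.1 and 9.60 CPM (log2 fold change -2.41, SE 0.069, adjusted p = 9.77e-06). The RNA of Anxa3 did not pass the test (log2 fold change -0.07, adjusted p = 0.579). The 4 Igf2bp3-RIP peaks had ratios from -1.87 to -1.58, and the m6A-RIP rows of Anxa3 were at -3.12 (46.2 and 42.0 to 3.79 and 4.56 CPM) and -0.29. The 3 Igf2bp3-RIP peaks of Malsu1, a mitoribosome assembly factor, overlapped the Igf2bp3 gene as well as Malsu1 and had ratios from 1.40 to 1.62, beside an m6A-RIP row at 1.47 and the RNA of Igf2bp3, which rose from 11.3 and 10.7 to 35.8 and 34.3 CPM (log2 fold change 1.65, SE 0.070, adjusted p = 2.92e-05). The RNA of Malsu1 itself rose less (log2 fold change 0.60, SE 0.059, adjusted p = 0.00044), and its other m6A-RIP rows were at -0.40 and -0.62. The 8 peaks of Olfml2b lay in Atf6 and had ratios from -0.39 to 0.08, with a median of -0.10, while the RNA of Olfml2b had a ratio of 1.91, the last of its m6A-RIP rows -0.85 and the RNA of Atf6 -0.75. In Anxa3 and Olfml2b the gene named beside a peak and the gene it lay in were different.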

How the data were processed

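The 14 libraries came from control and Lin28a+ cells. Per the labels and the methods, the authors trimmed and aligned reads with HISAT2 2.0.4, called peaks with MACS2 (listed as 1.4.3) and tested with DESeq2 1.42.0. The deposited m6A-RIP, Igf2bp3-RIP and Lin28a-RIP tables hold raw counts per peak, and the deposited input table holds expected counts per gene, which the authors made with a counting program not given in the sources used here and which were rounded to whole numbers for the tests. The processing notes name GRCh38 and mm10; mouse coordinates were read as mm10. No column was left unmapped.

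CPM was taken on column sums. Input genes and Igf2bp3-RIP peaks were tested with edgeR 4.0.16 in R 4.3.3 (TMM factors, filterByExpr, glmQLFit and glmQLFTest) and unequal change of the peaks of a gene with diffSpliceDGE, with Benjamini-Hochberg adjustment over all features tested and a threshold of 0.05. In simulated data the input test recovered 85% of 100 genes changed by a log2 fold of 1 and 96% at 2 with 17 false calls, the peak test 10% and 87% with 6, and the unequal-change test 73.5% of 200 genes with 1 peak changed by 2, with 21. Alternatives were other library scalings, DESeq2 1.42.0, other filters and pseudocounts, and leaving out each library.

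Of the 57 genes, those named were the 12 with the widest span, the 5 with most rows, the 5 with the highest summed control m6A-RIP CPM, the 3 with the largest RNA rise and fall, those with a called Igf2bp3-RIP peak, 3 on each side of the limit, and members of 14 gene lists, at most 6 a list. Others were named after their values were seen, for their neighbours or peak positions. The members and lists were chosen with earlier results of these data known. Neighbours and spans are from RefSeq, and 99.96% of kept rows had a RefSeq symbol. No genome sequence was used.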

Additional observations from a re-analysis of the deposited data

How the results depend on the processing

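The number of member genes was 57, and 59 with TMM-scaled library sizes and 65 with a minimum of 100 counts. It was 87 with a pseudocount of 0.1 CPM (55 of the 57 among them, without Lbx1 and Scarf2), 23 with 5 CPM (all among the 57), 34 with a minimum of 500 counts and 33 when rows of 1 transcript were summed (31 of the 57 among them). With 1 library left out (minimum 150 counts) it was 59 to 70, and 39 of the 57 genes stayed members each time. TMM moved the median ratio of all kept rows from -0.14 to 0.00 and the member rows at 1 or more and at -1 or less from 25 and 93 to 26 and 90. The member genes called in the input were 39 (56.8% of all genes), 39 and 41 with other scalings (56.7% and 56.9%), 28 with DESeq2 (25.1%), 40 with no filter (43.4%) and 35 to 39 without 1 library (46.2% to 50.4%). Of 207 gene values for 26 named genes, 9 lost and 1 gained the call and none changed sign. Of the Igf2bp3-RIP peaks of members, 3 passed, and 32 with DESeq2. Without control replicate 1 it was 24, without control replicate 2 it was 12, without Lin28a+ replicate 1 it was 24 and without Lin28a+ replicate 2 it was 13, a range of 12 to 24, and the lone library of an arm was assumed to vary like the other group. The replicate block gave 75 (10.2% of all peaks). The difference of replicate 2 minus replicate 1 correlated between the groups with r = 0.69 over 19465 peaks, which the main test does not model. The replicate numbers were not stated to mark a shared batch, and the block is given as a setting. The count of 3 depends on this choice. For unequal change of peaks 0 genes passed, also with the replicate block, and 0 to 1 without 1 library (Lrrc8c without control replicate 1). The RNA lay within the rows in 35 genes, 37 with a pseudocount of 0.1 CPM and 39 with TMM. Joining peaks by transcript kept 32 and 18 genes. No paired analysis was run for the input and m6A-RIP. The Lin28a+ m6A-RIP columns share 1 name, and the Lin28a+ input columns carry replicate numbers under m6A names, which were not taken as numbers of input replicates. Rows below about 5 CPM depend most on the pseudocount, and the Igf2bp3-RIP libraries differ in depth, from 9215355 to 34142094 counts. The causes of these shifts were not tested.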
